A study of Mus musculus with 12 samples.

Results

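Lif and its relatives in the IL-6 cytokine family were followed in B16F10 mouse melanoma cells as 9 genes chosen by symbol: the ligands Lif, Clcf1, Il6 and Il11, the receptor chains Il6st, Lifr and Osmr, the transcription factor Stat3 and its feedback inhibitor Socs3. All 9 were found among the 24421 gene symbols of the count files, and 7 of them reached 1 CPM (a read count scaled by library size, here equal to 15.9 to 27.3 counts) in at least 3 of the 12 libraries and were tested with the other genes that did so, 11638 in all. Il6 and Il11 stayed below that level. The RNA sequencing compared 4 groups with 3 independent repeats each: cells given DMSO as control, cells given 5-aza-2'-deoxycytidine (DAC) at 25 nM for 72 h, cells given sulforaphane (SFN) for the last 48 h, and cells given DAC for 72 h with SFN added for the last 48 h (DAC+SFN). DAC is a cytidine analog that blocks DNA methyltransferases, and SFN is an isothiocyanate of cruciferous vegetables known as an activator of the antioxidant factor NRF2. The labels write the SFN dose as 5 nM for the single treatment and as 5 µM for the combination, whereas the study's methods use 1 dose for both, so by the labels alone the SFN dose differs between these groups. B16F10 is 1 established line, and these libraries hold only what its cultures expressed without a host.

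Cytokines of the IL-6 family bind a ligand-specific receptor chain and share the signalling chain gp130, the product of Il6st. LIF signals through LIFR paired with gp130, oncostatin M through OSMR or LIFR paired with gp130, and CLCF1 through the CNTF receptor, LIFR and gp130. The chains activate JAK kinases, which phosphorylate STAT3, and STAT3 in turn induces Socs3, whose product shuts the receptor down. LIF was named for its block of leukemia cell growth and is known for keeping mouse embryonic stem cells undifferentiated.

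DNA methylation in mammals sits mostly on CG dinucleotides, and the promoter windows of the members on which the results turn are shown with each CG in capitals. Each is the 250 bases before a RefSeq transcript start on GRCm38.p6, read 5' to 3' on the strand of the gene. The windows lie at chr11:4257318-4257567 for Lif, chr5:30012864-30013113 for Il6, chr7:4778142-4778391 for Il11, chr13:112463820-112464069 for Il6st, chr11:100939541-100939790 for Stat3 and chr11:117969367-117969616 for Socs3, with Il11, Stat3 and Socs3 on the minus strand.
Lif: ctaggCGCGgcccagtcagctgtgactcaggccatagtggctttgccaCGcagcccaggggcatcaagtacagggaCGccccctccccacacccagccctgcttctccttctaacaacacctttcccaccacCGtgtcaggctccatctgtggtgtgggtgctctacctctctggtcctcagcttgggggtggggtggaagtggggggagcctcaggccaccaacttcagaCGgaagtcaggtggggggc
Il6: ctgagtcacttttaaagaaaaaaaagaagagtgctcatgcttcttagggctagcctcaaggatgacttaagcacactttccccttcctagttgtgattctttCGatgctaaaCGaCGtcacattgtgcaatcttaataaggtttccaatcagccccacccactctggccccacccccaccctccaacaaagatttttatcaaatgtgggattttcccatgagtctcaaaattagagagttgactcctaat
Il11: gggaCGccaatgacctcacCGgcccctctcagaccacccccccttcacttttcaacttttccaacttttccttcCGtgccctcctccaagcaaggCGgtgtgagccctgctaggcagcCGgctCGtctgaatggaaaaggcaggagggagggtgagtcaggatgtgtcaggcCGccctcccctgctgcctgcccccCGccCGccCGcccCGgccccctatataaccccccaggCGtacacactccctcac
Il6st: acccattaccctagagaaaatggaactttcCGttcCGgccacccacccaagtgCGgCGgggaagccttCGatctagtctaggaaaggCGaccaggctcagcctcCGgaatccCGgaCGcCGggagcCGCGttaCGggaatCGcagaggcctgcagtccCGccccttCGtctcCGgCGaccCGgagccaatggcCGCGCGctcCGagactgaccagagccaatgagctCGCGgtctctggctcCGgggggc
Stat3: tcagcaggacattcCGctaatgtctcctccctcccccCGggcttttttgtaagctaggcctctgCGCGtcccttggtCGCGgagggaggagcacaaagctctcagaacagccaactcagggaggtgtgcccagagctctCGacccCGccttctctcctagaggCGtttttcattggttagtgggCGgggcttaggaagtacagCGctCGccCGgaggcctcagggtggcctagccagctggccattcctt
Socs3: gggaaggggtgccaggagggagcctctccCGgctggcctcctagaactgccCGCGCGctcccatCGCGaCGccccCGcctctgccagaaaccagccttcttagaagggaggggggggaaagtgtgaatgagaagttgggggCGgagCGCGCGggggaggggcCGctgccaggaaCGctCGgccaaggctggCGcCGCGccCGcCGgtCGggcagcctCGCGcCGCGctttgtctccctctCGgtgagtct

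The Lif window held 6 CG, which equals the median of all 32817 RefSeq windows (quartiles 2 and 16). The windows of Il6st and Socs3 held 26 each, that of Osmr 18, that of Stat3 13 and that of Il11 12, while those of Il6 and Lifr held 3 each. Il11 and Lifr had more than 1 window in the table, and the counts are those of a single one. The windows of Il11, Lifr, Osmr and Socs3 lie inside the spans of their genes given below. They thus precede a RefSeq start but lie downstream of the gene's outermost 5' end. Of the 9 members, 8 had a window, and Clcf1 had none in the table used here.

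Letters for 3 binding motifs were looked for on both strands of the windows. TGANTCA, the AP-1 site, stood in the windows of Lif (its first base 228 bases before the start), Il6 (249 bases before) and Il11 (98 bases before), and 6.75% of all windows held it. TGACNNNGC, the core of the antioxidant response element bound by NRF2, stood in the Lif window alone among the 8, on the reverse strand with its leftmost base 241 bases before the start, and 10.2% of all windows held it. It covered bases other than those of the AP-1 site. TTCNNNGAA, the STAT site, stood only in the Socs3 window among the members, 154 bases before the start, and 7.01% of all windows held it. As that window lies within the span of Socs3, the site is not upstream of the whole gene. These matches describe the letters of the windows, and no binding or methylation was measured in these libraries.

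Of the 7 members tested, 1 rose with DAC (Lif), 2 rose with SFN (Lif and Clcf1) and 4 rose with DAC+SFN (Lif, Clcf1, Il6st and Stat3), each compared to control with edgeR's quasi-likelihood test at a Benjamini-Hochberg adjusted p under 0.05. Over all genes tested, 0.18% rose with DAC, 8.27% with SFN and 17% with DAC+SFN. None of the members fell, also at an unadjusted p under 0.05, while 0%, 5.65% and 14.7% of all genes fell in these comparisons. With a fold change above 2 required as well, Lif remained called with DAC, and Lif and Clcf1 with SFN and with DAC+SFN, where 0.0344%, 1.08% and 2.33% of all genes did so. Compared to DAC alone, DAC+SFN raised 3 members (Lif, Clcf1 and Il6st) and 9.55% of all genes, and lowered 0 members and 6.6% of all genes. Compared to SFN alone, it raised 2 members (Lif and Stat3) and 0.937% of all genes, and lowered 0 members and 0.67% of all genes. With the fold change above 2 as well, these comparisons called 2 members (Lif and Clcf1) and 0.73% of all genes, and 0 members and 0.112% of all genes. The median log2 fold change of the 7 members was 0.18 with DAC, 0.10 with SFN and 0.36 with DAC+SFN, against medians of all genes of 0.0049, 0.0040 and 0.0078. Changes are given per total RNA of the culture, so fewer cells expressing a gene and less RNA of it per cell cannot be told apart.

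**Figure D1:**
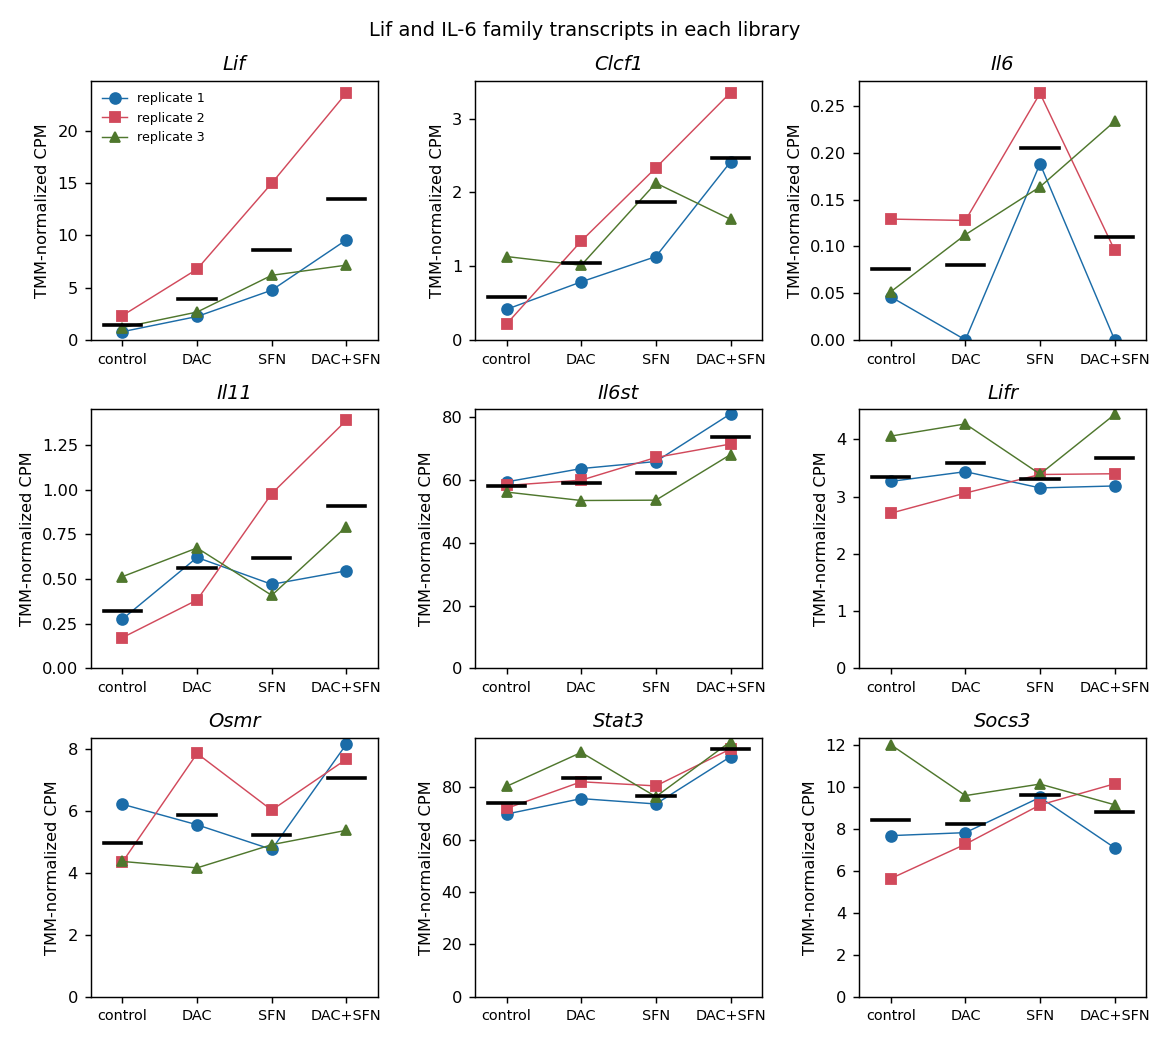
Level of each of the 9 members in TMM-normalized CPM (linear axis from 0) in the 12 libraries, with lines joining libraries of the same replicate number and black bars at the group means. Lif increased in the order control, DAC, SFN and DAC+SFN in all 3 replicates, from 0.782 to 2.32 CPM in control to 7.14 to 23.6 CPM with DAC+SFN, while Lifr, Osmr and Socs3 overlapped between groups.

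Lif (Entrez 16878, chr11:4257557-4272514 on the plus strand of mm10) was the member that changed the most. In replicates 1, 2 and 3 its level was 0.782, 2.32 and 1.18 CPM in control and 2.24, 6.76 and 2.66 CPM with DAC. With SFN it was 4.75, 15.0 and 6.17 CPM, and with DAC+SFN it was 9.56, 23.6 and 7.14 CPM. Every library that received SFN lay above every control library, while the DAC group overlapped with control, as its lowest library (2.24 CPM) lay under control replicate 2 (2.32 CPM). Replicate 2 was the highest library of each group, at 1.97 times the higher of the other two in control, 2.54 times with DAC, 2.43 times with SFN and 2.47 times with DAC+SFN. The raw counts behind these levels ranged from 17 in control replicate 1 to 493 in DAC+SFN replicate 2.

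Within each replicate the order of the levels was the same, control, DAC, SFN and then DAC+SFN. The log2 difference between SFN and DAC was 1.06, 1.14 and 1.19 in replicates 1, 2 and 3, and this pair of groups was not tested. Compared to control, Lif rose by a log2 fold change of 1.43 with DAC (SE 0.21, adjusted p = 0.0134, edgeR), which is 2.70-fold with a 95% interval of 1.98 to 3.69. It rose 6.01-fold with SFN (interval 4.51 to 7.99, log2 fold change 2.59, SE 0.19, adjusted p = 2.88e-06). It rose 9.31-fold with DAC+SFN (interval 7.04 to 12.3, log2 fold change 3.22, SE 0.19, adjusted p = 2.11e-07). Among the 11638 genes, Lif ranked 9th by log2 fold change with DAC, 4th with SFN and 4th with DAC+SFN.

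The step from SFN to DAC+SFN was the smallest of those tested for Lif. Compared to DAC alone, DAC+SFN raised Lif 3.44-fold (interval 2.71 to 4.38, log2 fold change 1.78, adjusted p = 2.88e-05). Compared to SFN alone it raised Lif 1.55-fold (interval 1.25 to 1.93, log2 fold change 0.63, SE 0.15, adjusted p = 0.0471). The log2 differences behind this last value were 0.99, 0.65 and 0.21 in replicates 1, 2 and 3. The sum of both single changes on the log2 scale exceeded the change of the combination, with an interaction of -0.80 (SE 0.26, interval -1.36 to -0.25, unadjusted p = 0.00758, adjusted p = 0.847, edgeR), so the interaction did not pass the adjustment over all genes. For the interaction 0 genes passed it, with a background of 0%, and 683 genes (5.87%) had an unadjusted p under 0.05.

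How much these calls depended on single libraries differed between comparisons. The SFN, the DAC+SFN and the DAC+SFN against DAC calls of Lif held without each of the 12 libraries in turn. The DAC call was lost without control replicate 1 (log2 fold change 1.37, adjusted p = 0.0903), control replicate 2 (1.33, adjusted p = 0.259) or DAC replicate 2 (1.43, adjusted p = 0.0566). The DAC+SFN against SFN call was lost in 9 of the 12 fits, with log2 fold changes from 0.48 without DAC+SFN replicate 1 (adjusted p = 0.238) to 0.72 without SFN replicate 3 (adjusted p = 0.235), and the largest fold change, 0.81, came without DAC+SFN replicate 3 (adjusted p = 0.00632). The other 7 fits in which it was lost left out control replicate 1 or 2, DAC replicate 1 or 2, SFN replicate 1 or 2, or DAC+SFN replicate 2. Without the replicate number as a block, where the differences between replicates enter the spread, only the DAC+SFN call of these 5 remained (adjusted p = 0.0141), and that of SFN had an adjusted p = 0.113.

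Clcf1 (Entrez 56708, chr19:4214238-4223490, plus strand), which encodes a ligand of the CNTF receptor, rested on far fewer counts than Lif. Its level in replicates 1, 2 and 3 was 0.414, 0.215 and 1.13 CPM in control and 0.787, 1.34 and 1.01 CPM with DAC. The SFN libraries were at 1.13, 2.33 and 2.13 CPM and the DAC+SFN libraries at 2.41, 3.35 and 1.63 CPM. The DAC+SFN libraries all lay above the control libraries, while control replicate 3 was level with SFN replicate 1 and above DAC replicates 1 and 3.

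Compared to control, Clcf1 rose 3.26-fold with SFN (interval 1.70 to 6.23, log2 fold change 1.70, SE 0.44, adjusted p = 0.0180, edgeR). It rose 4.35-fold with DAC+SFN (interval 2.31 to 8.19, log2 fold change 2.12, SE 0.43, adjusted p = 0.00192), and 2.40-fold compared to DAC alone (adjusted p = 0.0370). Its log2 fold change with DAC was 0.86 (interval -0.18 to 1.90, adjusted p = 0.587), and that of DAC+SFN compared to SFN was 0.42 (interval -0.32 to 1.15, adjusted p = 0.569). The replicates spread widely, as the log2 difference between DAC+SFN and control was 2.31, 3.50 and 0.50 in replicates 1, 2 and 3. The SFN call was lost without control replicate 1 (adjusted p = 0.0725), control replicate 2 (log2 fold change 1.07, adjusted p = 0.130), SFN replicate 2 (adjusted p = 0.0804) or SFN replicate 3 (adjusted p = 0.0757). The call against DAC alone was lost without control replicate 1, any 1 DAC replicate, SFN replicate 3, or DAC+SFN replicate 1 or 2, with adjusted p from 0.0520 to 0.175. The call of DAC+SFN against control held without each library, but its log2 fold change ran from 1.48 without control replicate 2 to 2.999 without control replicate 3. With SFN the value without control replicate 3 was 2.61, and with DAC the values ran from 0.25 to 1.77 without these same control libraries. An exon of Clcf1 shares up to 167 bases with the gene AC109138.7 on the same strand, so its counts are uncertain to that extent.

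Il11 (Entrez 16156, chr7:4772373-4782859, minus strand), a ligand that signals through its own receptor chain and gp130, was near the detection limit. Replicates 1, 2 and 3 had 6, 4 and 10 counts in control and 15, 6 and 18 counts with DAC. They had 10, 26 and 10 counts with SFN and 12, 29 and 17 counts with DAC+SFN. The DAC+SFN libraries lay above the control libraries, from 0.546 to 1.39 CPM against 0.172 to 0.514 CPM. In a fit with no filter on low counts its log2 fold change with DAC+SFN was 1.46 (SE 0.51, adjusted p = 0.0299, edgeR). In the same fit it was 0.90 with DAC (adjusted p = 0.746) and 0.95 with SFN (adjusted p = 0.310).

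Il6 (Entrez 16193, chr5:30013114-30019981, plus strand), the cytokine after which the family is named, had 1, 3 and 1 counts in the control libraries and 0, 2 and 3 counts in the DAC libraries. It had 4, 7 and 4 counts in the SFN libraries and 0, 2 and 5 counts in the DAC+SFN libraries. With at most 7 counts in a library, no difference between its groups passed the test. In the fit with no filter its adjusted p was 0.542 with SFN and 0.883 with DAC+SFN, against control. Other ligands were rare as well, with 7 to 40 counts per library for Ctf1, 0 to 3 for Cntf, and 1 count in all 12 libraries for Osm. In the fit with no filter, Ctf1 moved opposite to Il11. Its log2 fold change with DAC+SFN was -1.29 compared to DAC (adjusted p = 0.0401, edgeR) and -0.59 compared to control (adjusted p = 0.445).

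**Figure D2:**
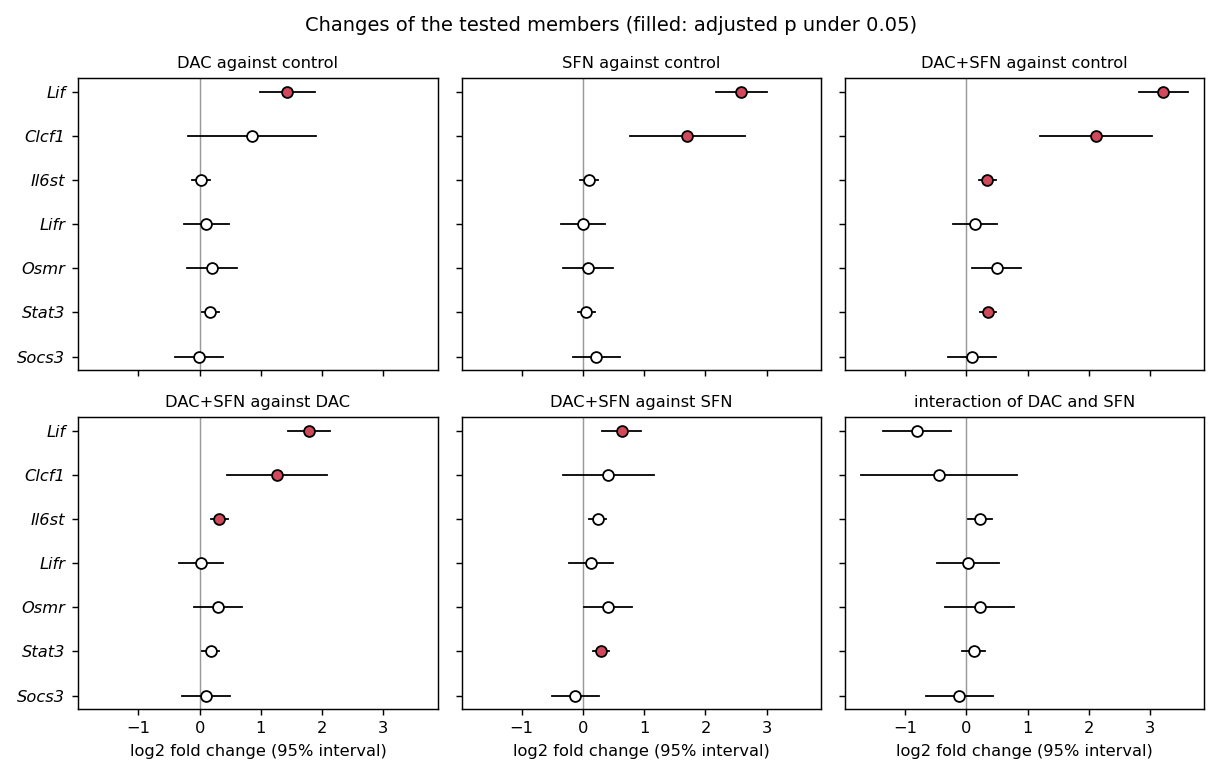
Log2 fold change of each of the 7 tested members in the 6 comparisons, with 95% intervals from edgeR's quasi-likelihood fit and filled points at an adjusted p under 0.05. Lif was filled in 5 of the 6 panels, and the intervals of Clcf1 were the widest of the 7.

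Of the receptor chains, Il6st rose and Cntfr fell with DAC+SFN compared to control, by log2 fold changes of 0.34 and -0.48. Il6st (Entrez 16195, chr13:112464070-112510086, plus strand), which encodes gp130, was at 59.4, 58.3 and 56.2 CPM in control and 63.7, 60.0 and 53.5 CPM with DAC. Its level was 65.9, 67.2 and 53.6 CPM with SFN and 81.1, 71.5 and 68.1 CPM with DAC+SFN. The DAC+SFN libraries were the 3 highest of the 12, and the other groups overlapped. Il6st rose 1.27-fold with DAC+SFN compared to control (interval 1.15 to 1.40, log2 fold change 0.34, SE 0.07, adjusted p = 0.00131, edgeR) and 1.25-fold compared to DAC alone (log2 fold change 0.32, adjusted p = 0.00495). Its log2 fold change was 0.02 with DAC (adjusted p = 0.936), 0.10 with SFN (adjusted p = 0.347) and 0.24 for DAC+SFN compared to SFN (adjusted p = 0.0692). The last of these passed the threshold with DESeq2 (adjusted p = 0.0474) and in a fit of these groups only (adjusted p = 0.0125).

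Lifr (Entrez 16880, chr15:7090614-7197489, plus strand), the chain that binds LIF, was at 3.27, 2.71 and 4.06 CPM in the control libraries and at 3.44, 3.06 and 4.27 CPM in the DAC libraries. The SFN libraries were at 3.15, 3.39 and 3.39 CPM and the DAC+SFN libraries at 3.19, 3.40 and 4.44 CPM. All groups overlapped. Its log2 fold change with DAC+SFN compared to control was 0.14 (interval -0.22 to 0.50, adjusted p = 0.565), so a change above 1.42-fold in either direction lay outside the interval. No comparison of Lifr passed the threshold.

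Osmr (Entrez 18414, chr15:6813577-6874969, minus strand), the oncostatin M receptor chain, was at 6.21, 4.35 and 4.37 CPM in control and 5.55, 7.85 and 4.16 CPM with DAC. With SFN it was at 4.75, 6.02 and 4.91 CPM, and with DAC+SFN at 8.15, 7.66 and 5.37 CPM. DAC+SFN replicates 1 and 2 lay above all control libraries and replicate 3 lay among them. The log2 fold change with DAC+SFN was 0.50 (interval 0.10 to 0.90, adjusted p = 0.0546, edgeR), just short of the threshold. It was called without control replicate 1 (0.67, adjusted p = 0.0408), DAC replicate 2 or 3, or DAC+SFN replicate 3 (0.55, adjusted p = 0.0476), and with version 4 of the fit (0.51, adjusted p = 0.0444).

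Of the 6 other receptor chains listed, 2 were tested. Cntfr (Entrez 12804, chr4:41657498-41697089), the chain that binds CNTF and CLCF1, was at 99.9, 108 and 93.1 CPM in control and at 84.7, 82.9 and 83.4 CPM with DAC. With SFN it was at 102, 79.0 and 83.9 CPM, and with DAC+SFN at 86.9, 61.7 and 69.3 CPM. Each DAC and DAC+SFN library lay under each control library. Cntfr fell with DAC+SFN by 0.48 on the log2 scale compared to control (SE 0.09, adjusted p = 0.00138, edgeR), and its log2 fold changes with DAC and with SFN were -0.27 (adjusted p = 0.318) and -0.20 (adjusted p = 0.171). In the same libraries its ligand Clcf1 had risen. Il11ra1, which binds IL-11, passed the threshold in no comparison, at a log2 fold change of 0.17 with DAC+SFN (adjusted p = 0.104). Il6ra, which binds IL-6, had 5 to 28 counts per library and was under the level for testing.

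Levels of different genes were compared only per kilobase of exon. In control, Stat3 was at 7.77 CPM per kb, Il6st at 5.22, Socs3 at 2.92, Osmr at 0.411, Lif at 0.328, Lifr at 0.310, Clcf1 and Il11 at 0.154 each and Il6 at 0.0311 CPM per kb. The ranges of Osmr, Lif and Lifr over the 3 control libraries overlapped (0.359 to 0.513, 0.180 to 0.534 and 0.252 to 0.377 CPM per kb). With DAC+SFN the order was Stat3 at 9.93, Il6st at 6.63, Lif at 3.09, Socs3 at 3.04, Clcf1 at 0.648, Osmr at 0.583, Il11 at 0.437, Lifr at 0.341 and Il6 at 0.0452 CPM per kb. Lif had thus moved from the level of its own receptor chain Lifr to the level of Socs3, and its range with DAC+SFN (1.64 to 5.43 CPM per kb) took in that of Socs3 (2.46 to 3.51). Among the other chains, Cntfr was at 36.1 CPM per kb in control.

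Stat3 (Entrez 20848, chr11:100885098-100939540, minus strand), the transcription factor on which these receptors converge, was at 69.8, 71.9 and 80.4 CPM in control and 75.7, 82.1 and 93.3 CPM with DAC. With SFN it was at 73.6, 80.5 and 76.4 CPM, and with DAC+SFN at 91.7, 94.6 and 97.5 CPM. The DAC+SFN libraries all lay above the control and SFN libraries, and DAC replicate 3 lay among them. Stat3 rose 1.28-fold with DAC+SFN compared to control (interval 1.17 to 1.40, log2 fold change 0.36, SE 0.06, adjusted p = 0.000690, edgeR) and 1.23-fold compared to SFN (log2 fold change 0.30, SE 0.06, adjusted p = 0.0337). Its log2 fold change was 0.18 with DAC (adjusted p = 0.330), 0.06 with SFN (adjusted p = 0.592) and 0.18 for DAC+SFN compared to DAC (adjusted p = 0.0621). The call against SFN was lost without control replicate 1, SFN replicate 1 or 3, or DAC+SFN replicate 1 or 2, with adjusted p from 0.0603 to 0.288. The call against DAC was gained without DAC replicate 3 (0.24, adjusted p = 0.0313). Transcript levels do not measure the phosphorylated form of the protein. An exon of Stat3 shares up to 72 bases with Stat5a on the opposite strand.

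Socs3 (Entrez 12702, chr11:117966079-117970047, minus strand), the feedback inhibitor that STAT3 induces, was at 7.68, 5.64 and 12 CPM in the control libraries and at 7.82, 7.27 and 9.59 CPM in the DAC libraries. The SFN libraries were at 9.50, 9.14 and 10.1 CPM and the DAC+SFN libraries at 7.10, 10.2 and 9.15 CPM. Control held both the lowest and the highest library, and all groups overlapped. The log2 fold change with DAC+SFN was 0.09 (interval -0.30 to 0.48, adjusted p = 0.729), and those with DAC and with SFN were -0.01 (adjusted p = 0.992) and 0.22 (adjusted p = 0.457). An increase above 1.40-fold with DAC+SFN lay outside the interval, next to the 9.31-fold rise of Lif in the same libraries. Without 1 library the DAC+SFN value ran from -0.15 to 0.33, so its sign rested on single libraries.

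The kinases of the pathway changed by little. Of the 3 kinases, Jak2 fell by 0.22 on the log2 scale with DAC+SFN compared to control (adjusted p = 0.0366, edgeR), a call lost without control replicate 1 or 2, SFN replicate 3, or DAC+SFN replicate 1 or 2 (adjusted p from 0.0507 to 0.204). Jak1 rose by 0.19 with DAC+SFN compared to DAC alone (adjusted p = 0.0222), a call lost without DAC replicate 2 or 3, or DAC+SFN replicate 1 or 3 (adjusted p from 0.0662 to 0.132). Tyk2 passed the threshold in no comparison, with 0.20 for DAC+SFN compared to control (adjusted p = 0.0834), and was called there without DAC+SFN replicate 3 (0.27, adjusted p = 0.0142).

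Of 13 feedback inhibitors and phosphatases, all tested, 0 were called with DAC or with SFN, and 2 rose and 1 fell with DAC+SFN compared to control, with a list median of 0.06. Over all genes 17% rose and 14.7% fell in that comparison, so these counts were near the share of all genes. Socs5 rose (log2 fold change 0.42, adjusted p = 0.00120, edgeR), Socs7 rose (0.26, adjusted p = 0.00641), and Ptpn2, a phosphatase that acts on JAK and STAT proteins, fell by 0.32 (adjusted p = 0.00583). These 3 were named after their values were seen.

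Among 19 genes listed as known STAT3 targets, 18 were tested, of which 1 rose with DAC, 3 rose with SFN, and 5 rose and 2 fell with DAC+SFN compared to control. Over all genes 0.18% rose with DAC, 8.27% rose with SFN, and 17% rose and 14.7% fell with DAC+SFN, so the number that fell was near the share of all genes. The list median was 0.08, 0.15 and 0.25 in these comparisons. Ccnd1, which encodes cyclin D1 of the step into S phase, was the only one past a 2-fold change, with mean levels of 319 ± 116, 494 ± 231, 790 ± 368 and 974 ± 363 CPM in control, DAC, SFN and DAC+SFN (SD, n = 3). It rose 1.51-fold with DAC (log2 fold change 0.60, adjusted p = 0.0344, edgeR), 2.42-fold with SFN (1.27, adjusted p = 4.36e-06) and 3.06-fold with DAC+SFN (1.61, adjusted p = 2.55e-07). The DAC call of Ccnd1 was lost without control replicate 1 or 2, DAC replicate 2 or 3, or SFN replicate 1, with adjusted p from 0.0558 to 0.263. An exon of Ccnd1 shares up to 818 bases with LTO1 on the opposite strand, and whether the counting used strand is not given in the sources used here.

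The other STAT3 targets called with DAC+SFN were named after their values were seen. Bcl2l1, which encodes the survival factor BCL-XL, rose (log2 fold change 0.93, adjusted p = 1.51e-05, edgeR), as did Il4ra (0.89, adjusted p = 0.0103), Fos (0.77, adjusted p = 0.0305) and the repressor Bcl6 (0.55, adjusted p = 0.00253). Birc5, which encodes the mitotic protein survivin, fell by 0.50 (adjusted p = 0.000209), and Hif1a fell by 0.20 (adjusted p = 0.0370). The Fos call was lost without control replicate 1 or 2 or DAC+SFN replicate 1, that of Il4ra without DAC+SFN replicate 1, and that of Hif1a without control replicate 1 or 2 or DAC+SFN replicate 1 or 2. The list thus moved in both directions, and 11 of its 18 tested genes passed no threshold. Of 10 acute phase genes, which IL-6 family cytokines induce in liver, 0 reached the level for testing.

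**Figure D3:**
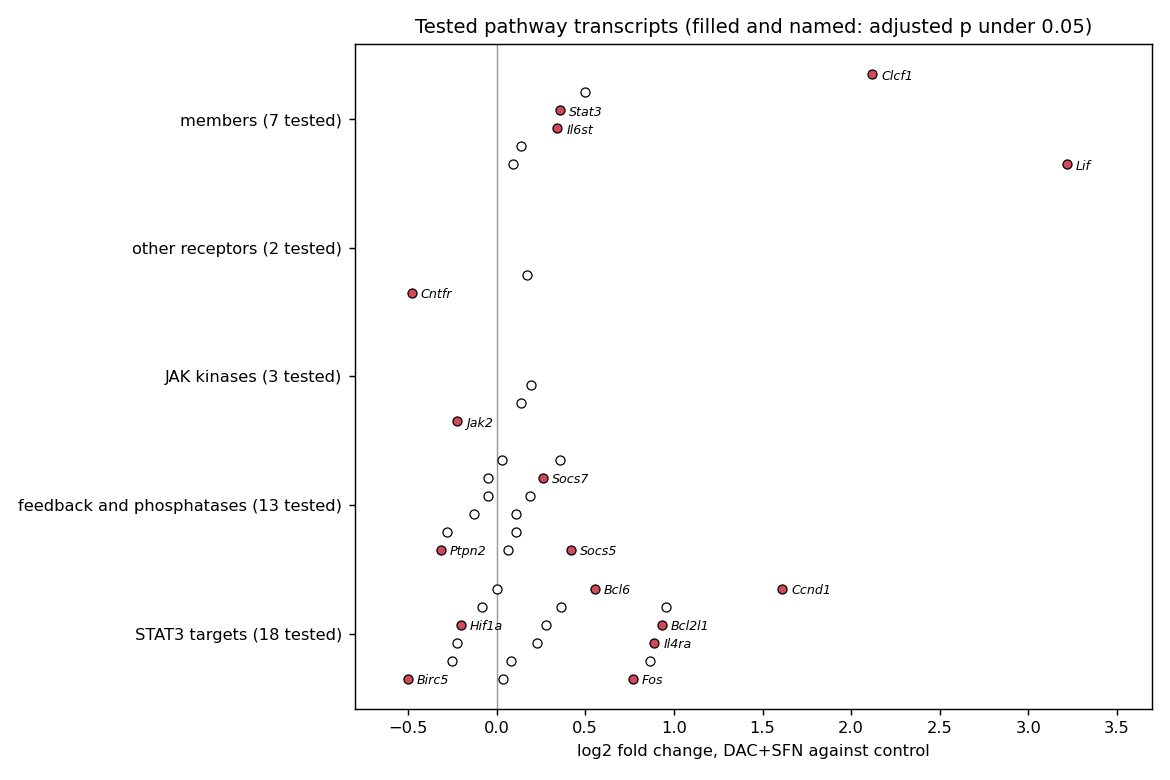
Log2 fold change of DAC+SFN against control for each tested gene of 5 lists, 1 point a gene with only the height within a row used to separate points, filled and named at an adjusted p under 0.05. Lif, Clcf1 and Ccnd1 lay above 1.5 on the log2 scale, and most other points lay between -0.5 and 1.

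The genes whose pattern over the 12 libraries was most like that of Lif were looked for among all genes tested, by Pearson's r of log2 CPM after the mean of each replicate number was removed. They were Fam212b (r = 0.996), Slc19a2 (0.996), Ccnd1 (0.991), Ctsh (0.988) and Mdm2 (0.987). These values describe 12 libraries that share 4 treatments. Slc19a2 encodes a thiamine transporter, Ctsh the protease cathepsin H, and Mdm2 the ubiquitin ligase that degrades p53. In control, DAC, SFN and DAC+SFN the mean level of Fam212b was 18.0, 27.5, 40.5 and 51.5 CPM. That of Slc19a2 was 44.3, 56.3, 67.9 and 74.9 CPM. That of Ctsh was 6.83, 11.4, 17.4 and 22.2 CPM, and that of Mdm2 was 158, 203, 275 and 325 CPM.

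Each of these 5 genes was higher at each step of the order control, DAC, SFN and DAC+SFN in 3 of 3 replicates, as was Lif. The 5 were chosen for likeness to Lif over the same libraries, so the shared order largely follows from that choice. Their folds were smaller than those of Lif, with log2 fold changes with DAC+SFN compared to control from 0.75 for Slc19a2 to 1.67 for Ctsh. With the replicate means left in, 2 of these 5 were again among the 5 most like Lif, and with Spearman's rho 0 were. Among the members, Clcf1 was next in likeness to Lif (r = 0.901, rank 509 of all genes), and Socs3 (r = 0.356) and Lifr (r = 0.254) were the least like it.

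**Figure D4:**
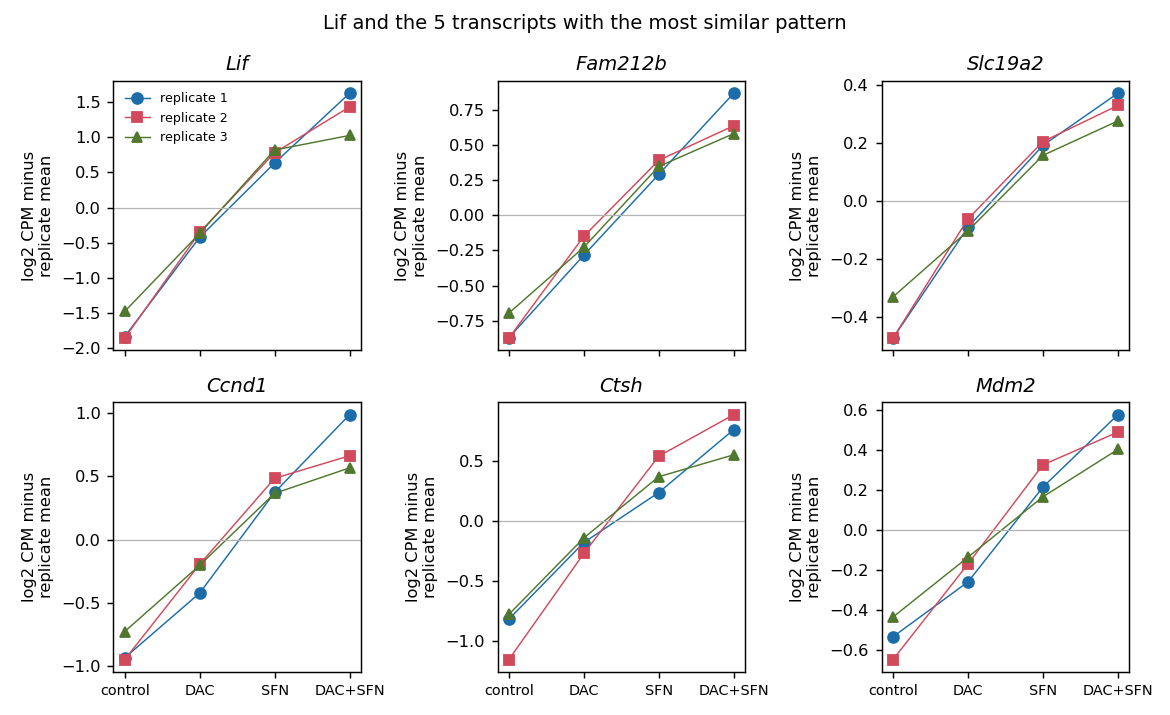
Log2 CPM minus the mean of the 4 libraries of the same replicate number, for Lif and for the 5 genes with the highest Pearson's r to Lif over the 12 libraries, with 1 line per replicate and its own vertical scale in each panel. Each line increases from control through DAC and SFN to DAC+SFN, with r to Lif from 0.987 to 0.996.

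Total counts per library ranged from 15880957 to 27291436. The 7 melanocyte markers were all tested and summed to 21417 to 30155 CPM per library, so the libraries held the pigment cell transcripts of the labelled line. Of 5 macrophage and leukocyte markers only Cd68 was tested, while Adgre1 was at 0 in all libraries and no library had more than 3 counts of Ptprc, Csf1r or Itgam. The summed level of these 5 ranged from 2.36 to 4.78 CPM in control and from 8.27 to 11.3 CPM with DAC+SFN, with 3.93 to 5.87 CPM in the DAC libraries and 6.16 to 9.03 CPM in the SFN libraries between them, nearly all of it Cd68. Cd68, which encodes a lysosomal protein, rose with SFN (log2 fold change 1.11, adjusted p = 0.000729, edgeR) and with DAC+SFN (1.55, adjusted p = 1.98e-05), in the libraries in which Lif rose, and its part in the Lif result was not tested. Of the melanocyte markers, Pmel and Tyrp1 fell with DAC+SFN compared to control, by 0.36 (adjusted p = 0.0129, edgeR) and 0.17 (adjusted p = 0.0478) on the log2 scale. The other 5 were not called there, and 3 of the 7 had a positive log2 fold change. Compared to DAC alone, DAC+SFN raised 1 melanocyte marker, Tyr, and lowered 0. Of 5 fibroblast markers 3 were tested, and the sum of all 5 ranged from 19.96 to 321 CPM in control and from 28.5 to 251 CPM with DAC+SFN. Most of it was Col1a1, at 72.1, 15.6 and 312 CPM in control replicates 1, 2 and 3. In each group Col1a1 was lowest in replicate 2, where Lif was highest, and highest in replicate 3. Pdgfra, the PDGF receptor alpha chain, fell with SFN by 0.84 (adjusted p = 0.0240) and with DAC+SFN by 0.73 (adjusted p = 0.0249) compared to control. The other 2 tested, Col1a1 and Col1a2, were not called in these comparisons. The part of these markers in the results of the members was not tested. The 4 endothelial markers summed to at most 0.766 CPM.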

How the data were processed

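RNA from 12 samples of B16F10 cells (4 groups, 3 replicates each) was sequenced by the authors as stranded single-end mRNA libraries. The authors deposited counts of reads per gene symbol, without normalization. Per the submitters' processing notes the reads were checked with FastQC 0.11.7, trimmed with Trimmomatic 0.38, aligned to mm10 with TopHat2 2.1.1 and counted with HTSeq. The annotation and the strand setting of the counting are not given in the sources used here.

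Groups and replicate numbers came from the titles of the samples. Genes reaching 1 CPM in 3 or more libraries were tested in R 4.3.3 with edgeR 4.0.16 (TMM, legacy quasi-likelihood fit, glmQLFTest, two-sided). A single fit held all 12 samples and took the replicate number as a blocking factor, since the study's methods correct for a batch effect. The study does not define that batch, and replicates cannot be told apart from a batch that followed the library numbers. Same-numbered samples deviated together from their group means in all 18 pairs (mean r = 0.544, range 0.270 to 0.732). The 36 pairs of different number had a mean r of -0.267 (range -0.597 to 0.282), so the ranges overlapped slightly. Deviations from a mean of 3 samples sum to 0, which makes this second mean negative when the first is positive. It is therefore no separate evidence for the block. P-values were adjusted by Benjamini-Hochberg over all 11638 genes. SE was derived from each fold change and its F statistic, and intervals are at 95%. Fold changes carry a prior count of 0.125, and log2 CPM used for differences within replicates and for likeness to Lif a prior count of 2. No gene list was tested as a set. Intervals and depth cover the spread between these 12 libraries only.

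The members and lists were chosen with earlier results of these data known. The text names all 9 members, the listed pathway genes past an adjusted p of 0.05 and a 2-fold change, Il6ra, Il11ra1, Cntfr and the JAK kinases, and the 5 genes most like Lif. Genes named beyond this are said to be so. A few listed genes are not reported here. Exons and positions were those of GENCODE on mm10, and promoter windows those of RefSeq on GRCm38.p6. The alternatives were DESeq2 1.42.0 (size factors and Wald test), version 4 of edgeR's fit, no filter, at least 10 counts in every library, no replicate block, only the groups compared, a prior count of 2, and each sample left out in turn. The fit was tested on simulated data. Figures were drawn with matplotlib 3.10.9.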

Additional observations from a re-analysis of the deposited data

How the results depend on the processing

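Without the replicate block, 0 members were called with DAC, with SFN, for DAC+SFN against DAC and for DAC+SFN against SFN, and the log2 fold change of Lif was 1.38 (adjusted p = 1.00, edgeR), 2.58 (0.113), 1.83 (0.159) and 0.63 (0.859) in these comparisons. The calls of Lif, Clcf1, Il6st and Stat3 with DAC+SFN against control held without the block. In the fits of only the groups compared 2 members were called with DAC, the second being Stat3 (adjusted p = 0.0344), and with at least 10 counts in every library 1 was called with SFN, since Clcf1 was no longer tested. Without single libraries the members called ranged from 0 to 1 with DAC, 1 to 2 with SFN and 0 to 2 for DAC+SFN against SFN, and the log2 fold change of Lif ranged from 1.33 to 1.57 with DAC and from 0.48 to 0.81 for DAC+SFN against SFN. Of all genes, the number called with DAC, 21, became 83 with DESeq2's Wald test, 33 with version 4 of the fit, 169 without a filter, 0 without the block, 662 with only the groups compared and 0 to 101 without single libraries. With SFN, 1619 became 23 without the block and 728 to 2105 without single libraries. With DAC+SFN, 3683 became 1201 and 2336 to 4205. For DAC+SFN against DAC, 1879 became 20 without the block, 760 with only the groups compared and 770 to 2381 without single libraries. For DAC+SFN against SFN, 187 became 388 with DESeq2's Wald test, 486 without a filter, 0 without the block, 1221 with only the groups compared and 0 to 700 without single libraries. The interaction gave 1 gene without a filter. The cause of these shifts was not tested.

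The values whose sign changed were not called in any fit. Lifr with SFN was -0.0029 with DESeq2's size factors, -0.0016 with its Wald test, -0.0023 with version 4, -0.0057 without a filter, -0.0031 with at least 10 counts, -0.010 without the block, -0.0018 with only the groups compared, and -0.12 to 0.13 without single libraries. The ranges without single libraries were also -0.034 to 0.095 for Lifr with DAC+SFN against DAC, -0.099 to 0.15 for its interaction, -1.38 to 0.17 for the interaction of Clcf1, and -0.016 to 0.074 for Il6st with DAC. For Osmr they were -0.016 to 0.37 with DAC and -0.14 to 0.25 with SFN. For Socs3 they were -0.23 to 0.25 with DAC, -0.023 to 0.46 with SFN, -0.15 to 0.33 with DAC+SFN, -0.13 to 0.22 for DAC+SFN against DAC and -0.37 to 0.10 for the interaction. For Il11ra1 they were -0.050 to 0.012 with DAC and -0.040 to 0.029 for DAC+SFN against SFN, and for Tyk2 -0.066 to 0.087 with DAC and -0.040 to 0.071 with SFN. Over all single-gene results, 1589 of the alternative values kept their direction and their side of the threshold, 75 lost the call, 21 gained it and 42 changed sign. Il6 and Il11 had at most 29 counts in a library, and the change detectable at such counts was not tested.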
